A study of Mus musculus with 24 samples.

Results

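The 9 genes described here make, bind, sense and break down retinoic acid. Aldh1a1 and Aldh1a2 encode retinaldehyde dehydrogenases, Crabp1 and Crabp2 cellular retinoic acid binding proteins, Rara, Rarb and Rarg the retinoic acid receptors, and Cyp26a1 and Cyp26b1 retinoic acid hydroxylases. They were chosen by name as the core of the pathway, and each matched 1 of the 21833 protein-coding genes of the expression table. RNA-seq of 24 mouse samples in 4 groups was used, with levels as FPKM, which scale the fragments of a gene by its length and by the size of the library. The 3 AG samples came from adrenal glands of mice without Cre. The 5 AGM samples were tumor-free adrenal glands, labelled MYCN +/-, CRE +. The 8 TI samples were neuroblastomas from CRE + mice with an IGF2BP1 transgene, in 1 sample heterozygous (+/-) and in 7 homozygous (+/+). The 8 TIM samples were neuroblastomas labelled IMP1/MYCN, CRE +, where IMP1 is another name of IGF2BP1. The source was labelled as adrenal gland tumor in 1 TI and 2 TIM samples and as spine tumor in 1 TIM sample. In 7 TI and 5 TIM samples the label was tumor without a site. The transgenes stood behind a loxP-flanked stop cassette at the Rosa26 locus, and Cre was driven by the Dbh promoter, so that only cells of the sympatho-adrenal lineage were meant to express them, on a C57Bl6/N background. An adrenal gland also holds cortex, which does not descend from that lineage, and in whole tissue a fall in the number of a cell type and a fall in RNA per cell cannot be told apart.

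Retinol is oxidized to retinal by alcohol and retinol dehydrogenases, and retinal is oxidized to retinoic acid by the Aldh1a enzymes. Retinoic acid binds receptors of the Rar family, which sit on DNA as dimers with Rxr receptors and switch on genes such as Rarb and Cyp26a1. Cyp26 enzymes hydroxylate retinoic acid and so end the signal. Retinoic acid is known for driving neuroblastoma cells towards neuronal differentiation and is used in the treatment of children with the disease.

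The DNA element through which the receptors act is a direct repeat of a short motif, and it is shown here for the genes that carry it near their start. Elements further from the start, or in other forms, were not searched. The windows of 250 bases before to 50 bases after gene starts (RefSeq, GRCm38.p6) were searched on both strands for 2 such motifs separated by 5 bases, each in the form AGGTCA, the form AGTTCA, the form GGGTCA or the form GGTTCA. Of 32851 windows, 32 held such a repeat, which is 0.0974%. Windows were found for 8 of the 9 genes, 13 in all (Crabp2 had none), and 2 of the 13 held the repeat, at Rarb and at Cyp26a1. The Rarb repeat lay 53 to 37 bases upstream of the start, and the Cyp26a1 repeat lay 32 to 16 bases upstream on the opposite strand. With a spacing of 1 base, 0.222% of all windows had a match, and with a spacing of 2 bases 0.268%, and none of the 13 windows did. Below, 100 bases around each repeat are given 5′ to 3′ on the strand of the gene, with the repeat in capitals.
Rarb, GRCm38.p6 chr14:16575477-16575576, minus strand: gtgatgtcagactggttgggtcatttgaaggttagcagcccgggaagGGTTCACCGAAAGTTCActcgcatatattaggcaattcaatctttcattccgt
Cyp26a1, GRCm38.p6 chr19:37697708-37697807, plus strand: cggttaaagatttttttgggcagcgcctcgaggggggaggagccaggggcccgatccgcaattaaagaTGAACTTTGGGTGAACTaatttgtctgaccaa

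Between 12334076 and 23683176 corrected reads per library stood behind the values, outside 126 genes that exceeded 1000 FPKM. With those genes included, the totals were 17434796 to 17893013 in AG and 12468968 to 21353172 in TI. They were far larger in AGM, at 116740738 to 1170004708, and in TIM, at 58530450 to 888626365. Such genes reached very high values only in AGM and TIM libraries, where pancreatic markers summed to 28352 FPKM or more in every AGM library. The markers of the labelled tissue were present in glands: the summed level of 10 adrenal cortex markers was 691 to 735 FPKM in AG and 4882 to 6453 FPKM in AGM. In TI it was 0.615 to 18.1 FPKM and in TIM 1.28 to 13.0 FPKM. The 12 markers of chromaffin cells and sympathetic neuroblasts summed to 143 to 205 FPKM in AG, 1476 to 2552 FPKM in AGM, 237 to 1836 FPKM in TI and 231 to 4752 FPKM in TIM. In 4 tumor libraries, called marked here, the markers of adrenal cortex, mesenchyme, endothelium or Schwann cells exceeded 5 times the median of the group: TI library 4 (mesenchyme 66.0 FPKM, endothelium 64.9 FPKM), TI library 6 (adrenal cortex 18.1 FPKM), TIM library 1 (Schwann cells 23.0 FPKM) and TIM library 5 (Schwann cells 44.3 FPKM, adrenal cortex 13.0 FPKM). The same held for chromaffin and neuroblast markers in TIM library 5 (4752 FPKM) and adipocyte markers in TIM libraries 1 and 5 (11.3 and 37.3 FPKM). It also held for mesothelium markers in TIM libraries 1 and 8 (1.77 and 1.62 FPKM). Pancreas markers did so in TI library 6 (3.4 FPKM) and TIM libraries 1, 3 and 4 (654291 FPKM or more). Adipocyte markers summed to 56.9 to 273 FPKM in AG, 247 to 1113 FPKM in AGM, 0.167 to 2.27 FPKM in TI and 0.0437 to 37.3 FPKM in TIM. Library numbers are names only. AG was sequenced in run 1, AGM in run 2 and TIM in runs 2 and 3, so an effect of the run cannot be told apart from one of the group where AGM or TIM is set against AG. Of the TI samples, 6 were in run 1, 1 in run 2 and 1 in run 3. Run and group are therefore largely tied in TIM vs TI and TI vs AGM too.

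Of the 9 genes, 5 reached 1 FPKM in at least 3 libraries and were tested among 10171 genes (limma, Benjamini-Hochberg adjusted, false discovery rate (FDR) under 0.05). Aldh1a2 and Aldh1a1 passed this filter through the glands alone, Rarg through all 8 glands and 1 tumor, and Crabp1 through AGM and some tumors. The first 3 were thus kept for their gland levels, and their tests of tumors against glands, like the counts and medians over the tested genes, are given as a description. The other 4 genes (Crabp2, Rarb, Cyp26a1, Cyp26b1) stayed below the filter and were compared by exact permutation tests on RPM (reads scaled to a total of 1000000, leaving out of that total the 126 genes above 1000 FPKM). In TI vs AG, 4 of the 5 tested genes passed, against 52.4% of all tested genes, with 1 higher and 3 lower (24.6% and 27.7% of all genes). In TIM vs AG 3 of 5 passed (51.0% of all genes), 1 higher and 2 lower (22.5% and 28.5%). In AGM vs AG 3 of 5 passed (28.6%), 2 higher and 1 lower (14.6% and 14%). In TIM vs TI 0 of 5 passed (22.9% of all genes, 10% higher and 12.9% lower). In TIM vs AGM 5 of 5 passed (65.3%), 1 higher and 4 lower (31.9% and 33.4%), and in TI vs AGM 4 of 5 passed (72.4%), 0 higher and 4 lower (36.2% for either direction). The median log2 fold change of the 5 genes was -0.76 in TI vs AG, -0.64 in TIM vs AG and 0.37 in AGM vs AG, whereas the medians over all tested genes lay between -0.0049 and -0.0021. The values of each gene by library are plotted for all 9 genes.

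**Figure D1:**
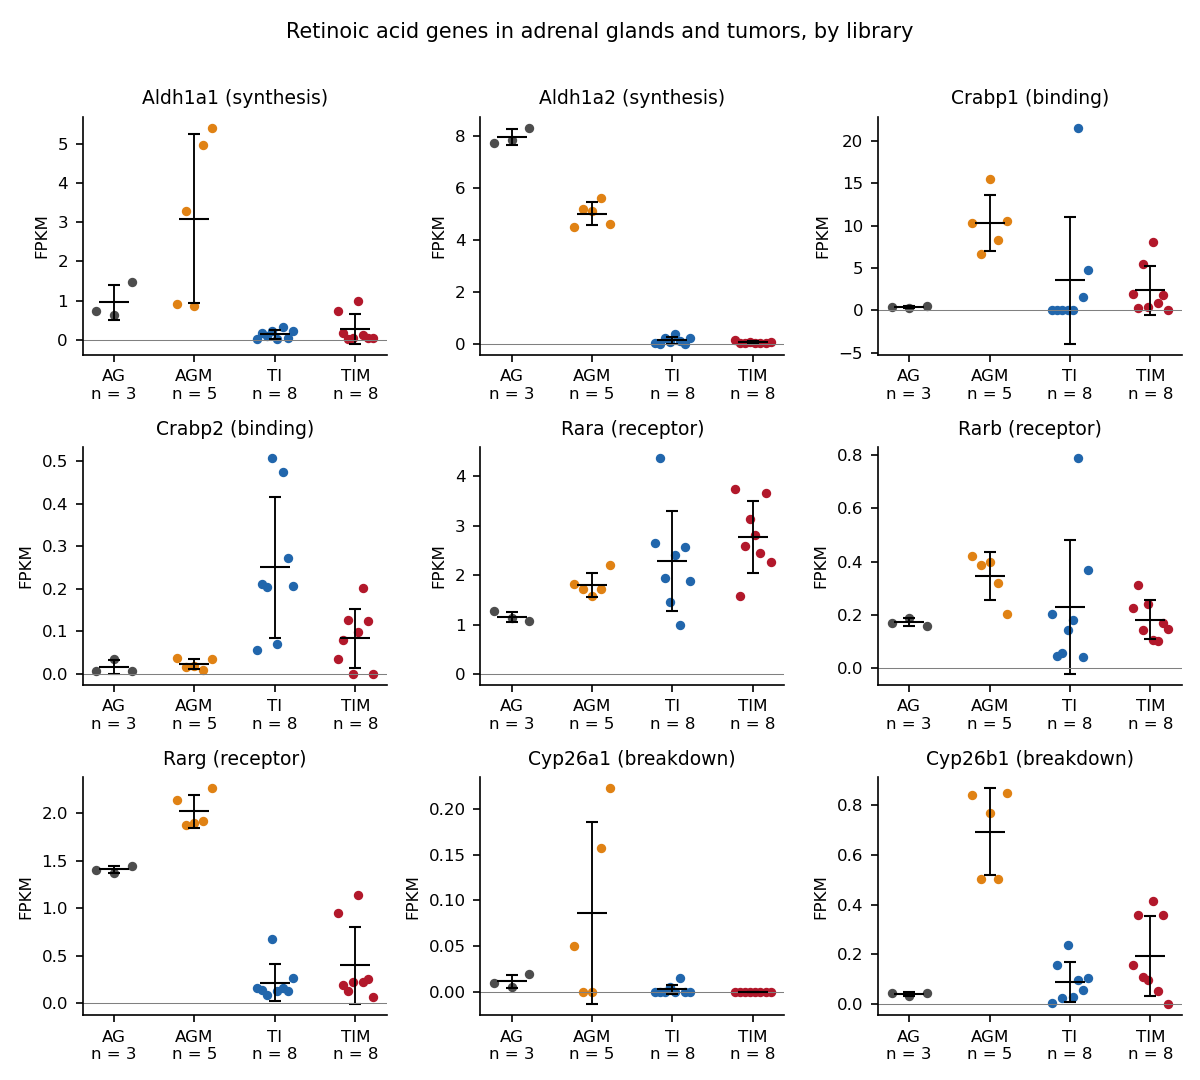
FPKM of the 9 retinoic acid genes in each library (points) by group, with the mean and the SD of the group (black bars), each panel on its own linear axis. Aldh1a2 lies between 4.5 and 8.30 FPKM in all 8 gland libraries and at 0.352 FPKM or less in all 16 tumors, whereas Crabp1 reaches 21.5 FPKM in 1 TI library and is at 0 in another.

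Of the synthesis enzymes, Aldh1a2 fell furthest in the tumors. This dehydrogenase, whose product makes most of the retinoic acid of the early embryo, stood at 7.71, 7.83 and 8.30 FPKM in AG and at 4.5, 5.18, 5.09, 5.59 and 4.62 FPKM in AGM. In TI it ranged from 0 to 0.352 FPKM (median 0.0663) and in TIM from 0.00466 to 0.154 FPKM (median 0.0313). All 8 TI and all 8 TIM libraries lay below every gland, and all 5 AGM libraries lay below every AG library. Mean FPKM was 66.0-fold lower in TI and 161-fold lower in TIM than in AG, with log2 fold changes of -3.00 ± 0.088 (SE, FDR 4.2e-18) and -3.09 ± 0.088 (FDR 2.0e-18) on the log2(FPKM + 1) scale, which understates such falls. Behind the tumor values stood 0 to 102 reads per library, against 1866 to 1995 in AG. In AGM the level was 1.59-fold lower than in AG (log2 fold change -0.58 ± 0.095, FDR 6.8e-05), a call that was lost with a pseudocount of 0.1 (FDR 0.22, range over 5 alternatives 4.4e-05 to 0.22). TIM and TI did not pass a test of their difference for Aldh1a2 (-0.088, 95% interval -0.22 to 0.046, FDR 0.34). The Aldh1a2 gene lies on chromosome 9, from 71122630 to 71203527 on the plus strand (GRCm39).

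Adrenal cortex markers moved with Aldh1a2 between glands and tumors, but not within the glands, as the plot of marker sums shows. The cortex sum was higher in AGM than in AG, where Aldh1a2 was higher in AG than in AGM. Within the tumors, the libraries with the highest cortex sums, TI library 6 and TIM library 5, held 0.0838 and 0.0194 FPKM of Aldh1a2, and the highest Aldh1a2 value, 0.352 FPKM, stood in TI library 5 with the lowest cortex sum of 0.615 FPKM. Adipocyte sums were likewise lower in every tumor than in every gland, along with Aldh1a2, Rarg and the alcohol dehydrogenase gene Adh1. The part of cortex and fat in the differences between glands and tumors was not tested.

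**Figure D2:**
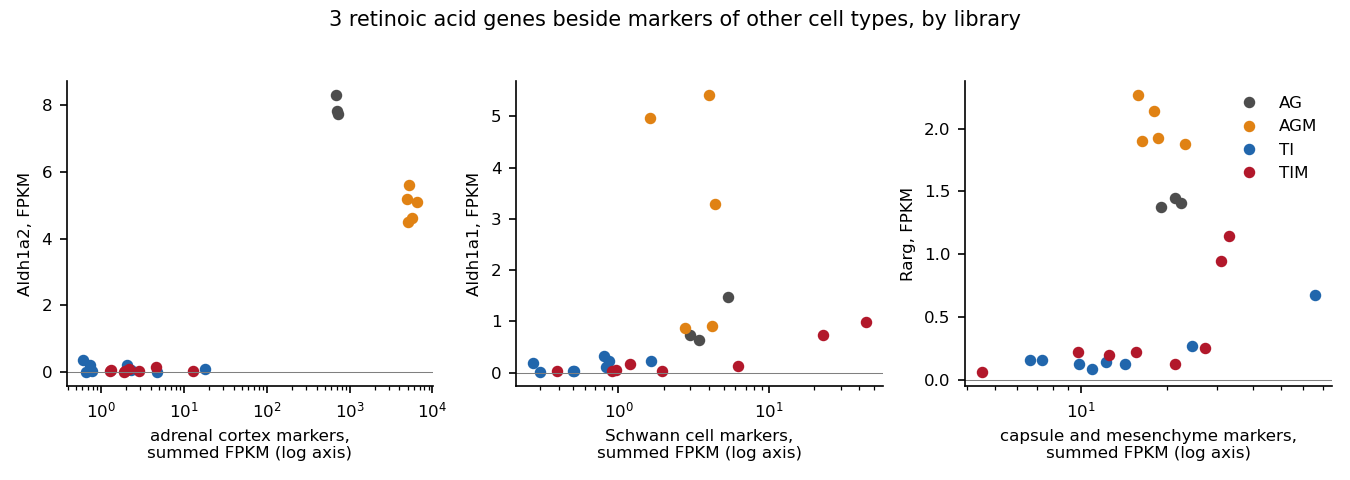
Aldh1a2, Aldh1a1 and Rarg (FPKM, linear axes) against the summed FPKM of markers of adrenal cortex, Schwann cells, and capsule and mesenchyme (log axes), 1 point per library, coloured by group. The tumors lie at 18.1 FPKM of cortex markers or less, and the TIM libraries with Schwann cell sums of 23.0 and 44.3 FPKM hold the highest Aldh1a1 and Rarg values among the tumors.

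Aldh1a1, the other retinaldehyde dehydrogenase of the set, was expressed at lower levels and varied more between libraries. It stood at 0.740, 0.641 and 1.48 FPKM in AG and at 0.907, 3.29, 0.868, 4.97 and 5.42 FPKM in AGM. In TI it ranged from 0.00833 to 0.317 FPKM (median 0.142) and in TIM from 0.0278 to 0.995 FPKM (median 0.0823). All TI libraries lay below AG, 6 of 8 TIM libraries did, and the AGM libraries fell into 2 near the AG values and 3 above them. Mean FPKM in TI was 6.77-fold lower than in AG (log2 fold change -0.76 ± 0.30, FDR 0.039), and in TIM 3.5-fold lower without passing the threshold (-0.64 ± 0.30, FDR 0.081). The TIM libraries within the AG range were the pair with high Schwann cell markers, at 0.740 and 0.995 FPKM. Without these and the 2 marked TI libraries, both tumor contrasts passed for Aldh1a1 (TI -0.81, FDR 0.028; TIM -0.84, FDR 0.025), and over all alternatives TIM vs AG had an FDR of 0.0052 to 0.13. The TI call was lost without a filter (FDR 0.068) and in 7 of 11 fits that left out 1 library (FDR 0.038 to 0.20). In AGM, Aldh1a1 was 3.25-fold higher than in AG (0.90 ± 0.33, FDR 0.042). That call was lost in all 5 alternatives (FDR 0.070 to 0.24) and in 5 of 8 fits without 1 library (FDR up to 0.15). Both tumor groups were lower than AGM for Aldh1a1 (TI -1.66, FDR 5.1e-06; TIM -1.54, FDR 1.7e-05). Aldh1a1 has a close paralog, Aldh1a7, and reads shared by these genes could have been assigned to either.

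Among the binding proteins, Crabp1 was highest in AGM and uneven in tumors. Crabp1, which holds retinoic acid in the cytoplasm and presents it for breakdown, stood at 0.465, 0.308 and 0.470 FPKM in AG and at 10.2, 6.67, 15.5, 8.35 and 10.6 FPKM in AGM. The groups did not overlap, and the mean was 24.8-fold higher in AGM (log2 fold change 2.95 ± 0.82, FDR 0.010). With limma-voom on recovered reads this Crabp1 call was lost (4.09, FDR 0.062), and the FDR of the 5 alternatives lay between 3.9e-05 and 0.062. In TI, 5 libraries held 0 to 0.0996 FPKM, below every AG library, and the other 3 held 1.64, 4.80 and 21.5 FPKM, above every AG library. In TIM the range was 0 to 8.06 FPKM (median 1.39), with 5 libraries above AG, 2 below and 1 within. A mean difference from AG was therefore not detectable in either tumor group for Crabp1 (TI 0.60, 95% interval -0.98 to 2.19, FDR 0.55; TIM 0.84, -0.75 to 2.42, FDR 0.38). Both tumor groups were below AGM (TI -2.34, FDR 0.0025; TIM -2.11, FDR 0.0067), with 7 of 8 libraries in each under the lowest AGM value. The TI library with 21.5 FPKM, library 6, was also the TI library with the highest sums of cortex and chromaffin markers (18.1 and 1836 FPKM).

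Crabp2, which hands retinoic acid to the receptors in the nucleus, was found at a few reads per library. It had 1, 5 and 1 reads in AG and 4, 2, 2, 1 and 4 reads in AGM. In TI the reads ranged from 9 to 73 and in TIM from 0 to 24. All 8 TI libraries were above every gland library in RPM, and 2 TIM libraries held 0 reads, which allows up to 3 reads in each. The mean was 1.99 RPM in TI against 0.134 RPM in AG, a difference of 1.86 that did not pass after adjustment over the 6 contrasts (exact permutation, two-sided, adjusted p = 0.061). Against AGM, at 0.137 RPM, the difference of 1.86 passed (exact permutation, adjusted p = 0.030). TIM held 0.601 RPM, 1.39 fewer than TI (exact permutation, adjusted p = 0.030). The highest TI values, 73 and 66 reads, stood in TI libraries 4 and 6, the ones with high mesenchyme, endothelium and cortex markers. Per length, Crabp2 stayed at 0.507 FPKM or less, below the Crabp1 values of every AGM library.

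Among the receptors, Rarg was lower and Rara higher in both tumor groups than in AG. Rarg, a receptor with many roles in skin, cartilage and progenitor cells, stood at 1.41, 1.37 and 1.45 FPKM in AG and at 2.14, 1.88, 1.90, 1.92 and 2.27 FPKM in AGM. In TI it ranged from 0.0844 to 0.673 FPKM (median 0.150) and in TIM from 0.0632 to 1.14 FPKM (median 0.225). No tumor library reached the lowest gland. Mean FPKM was 6.48-fold lower in TI (log2 fold change -1.0 ± 0.17, FDR 3.4e-05) and 3.54-fold lower in TIM (-0.83 ± 0.17, FDR 0.00027) than in AG. Since Rarg passed the filter mainly through the glands, these calls are a description. They stayed under the threshold in every alternative and every fit without 1 library. Rarg was also lower in TI and TIM than in AGM (-1.32, FDR 3.1e-08; -1.16, FDR 3.1e-07). The highest tumor values, 1.14 and 0.95 FPKM in TIM libraries 5 and 1 and 0.673 FPKM in TI library 4, stood in the libraries with raised Schwann cell or mesenchyme and endothelium markers. Without the 4 marked libraries the fall was as large, at -1.07 in TI and -1.03 in TIM (FDR 1.9e-10 and 3.2e-10).

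Rara, the receptor with the broadest expression, stood at 1.27, 1.13 and 1.08 FPKM in AG and at 1.81, 1.71, 1.57, 1.72 and 2.21 FPKM in AGM. In TI it ranged from 0.995 to 4.37 FPKM (median 2.18) and in TIM from 1.57 to 3.74 FPKM (median 2.71). All TIM and 7 of 8 TI libraries were above every AG library, and TI library 6 was below. Mean FPKM was 1.97-fold higher in TI (log2 fold change 0.55 ± 0.20, FDR 0.028) and 2.40-fold higher in TIM (0.78 ± 0.20, FDR 0.0028). The TIM call held in every alternative and every fit without 1 library. The TI call of Rara was lost when TI and AG alone set the spread (FDR 0.072, range over 6 alternatives 0.0016 to 0.072) and without any of the AG libraries (FDR up to 0.088). Rara in TIM was above AGM (0.41 ± 0.17, FDR 0.041), which was lost without a filter (FDR 0.064) and in 8 of 13 fits without 1 library, and TI vs AGM did not pass (0.18, 95% interval -0.18 to 0.53, FDR 0.36) but did with FPKM recomputed outside the genes above 1000 FPKM (0.63, FDR 0.016), with limma-voom (0.69, FDR 0.019) and without the 4 marked libraries (0.35, FDR 0.043). TIM vs TI did not pass for Rara or Rarg (0.23, interval -0.080 to 0.55; 0.17, interval -0.094 to 0.43).

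The AGM libraries did not overlap AG for 4 of the 5 tested genes, Aldh1a2, Crabp1, Rara and Rarg, against 61.9% of all tested genes. Rara and Rarg did not pass in AGM vs AG in the shared fit (0.37, FDR 0.21; 0.32, FDR 0.19), and both passed when AGM and AG alone set the spread (FDR 0.0041 and 0.0022). That contrast depended on how libraries were scaled. FPKM recomputed over the reads outside the genes above 1000 FPKM moved the median of all genes by -0.34 in AGM vs AG, and Rara and Rarg then stood at 0.14 and 0.038, which is 0.48 and 0.38 above that median. The same scaling moved the median by -0.14 in TIM vs AG, -0.12 in TIM vs TI, 0.24 in TIM vs AGM and 0.33 in TI vs AGM. Relative to it, Rara stayed at 1.12 in TIM vs AG and Rarg and Aldh1a2 at -1.72 and -5.15. Groups that did not overlap numbered 3 of 5 in TI vs AG (51.1% of all genes), 3 of 5 in TIM vs AG (42.5%), 0 of 5 in TIM vs TI (1.55%), 2 of 5 in TIM vs AGM (35.2%) and 3 of 5 in TI vs AGM (52.2%).

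**Figure D3:**
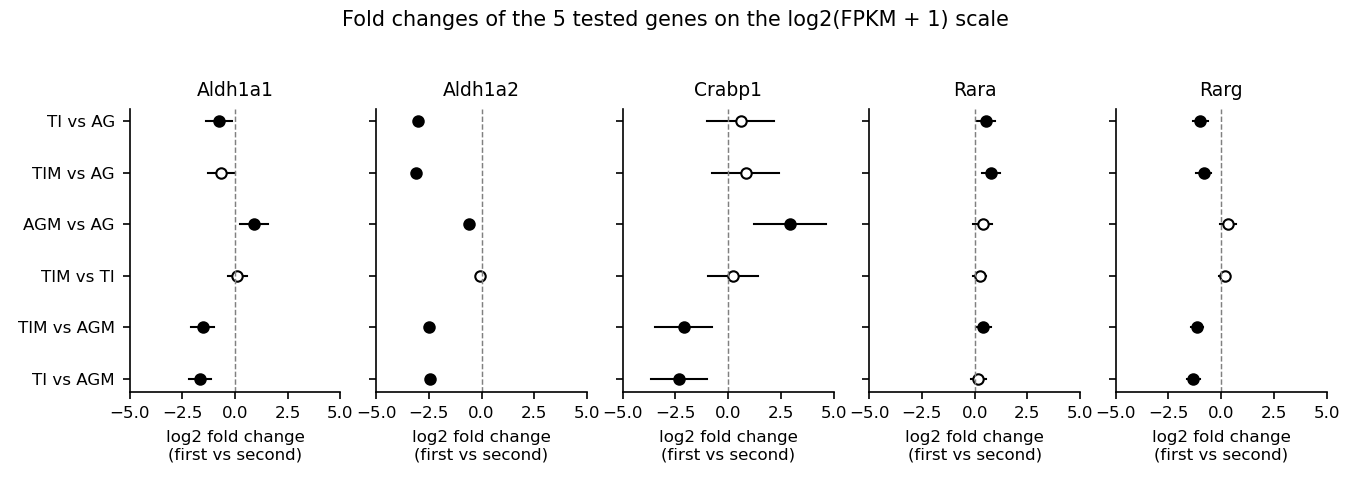
Log2 fold changes (log2(FPKM + 1) scale) of the 5 tested genes in the 6 contrasts, with 95% intervals from limma (lines), filled where the FDR was under 0.05. Aldh1a2 lies at -3.00 and -3.09 in both tumor groups against AG, Rarg is lower and Rara higher in both, and none of the 5 genes passes in TIM vs TI.

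Rarb, itself a target of the receptors and a carrier of the repeat shown above, was low in every group. It stood at 0.170, 0.189 and 0.159 FPKM in AG (89 to 105 reads) and at 0.422, 0.387, 0.400, 0.320 and 0.202 FPKM in AGM. In TI it ranged from 0.0432 to 0.789 FPKM (median 0.162) and in TIM from 0.103 to 0.313 FPKM (median 0.159). TI library 6 held the highest value and the next TI library 0.370 FPKM, and in each tumor group 3 of 8 libraries lay above AG and 4 below. None of the 6 contrasts passed for Rarb (exact permutation, adjusted p = 0.37 or more).

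The share of Rara in the FPKM of all 3 receptors was computed after these values were seen. It was 44.6%, 41.9% and 40.2% in AG and 41.5%, 43.0%, 40.6%, 43.4% and 47.3% in AGM. In TI the share ranged from 51.2% to 95.9% (median 88.4%) and in TIM from 69.3% to 91.5% (median 87.6%), so that every tumor was above every gland. The means were 42.2% ± 2.25 (SD, n = 3) in AG, 43.1% ± 2.57 (n = 5) in AGM, 81.2% ± 16.3 (n = 8) in TI and 83.5% ± 8.5 (n = 8) in TIM. Since the share was formed from receptor levels already seen, it is a description, with no test. As a ratio within libraries, the share does not depend on the library scaling. The summed receptor FPKM was 2.74 in AG, 4.17 in AGM, 2.73 in TI and 3.36 in TIM. The lowest tumor shares, 51.2% and 64.2%, stood in TI libraries 6 and 4. In library 6 Rarb made up most of the rest, and in library 4 Rarg did, as the plot of receptor levels shows.

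**Figure D4:**
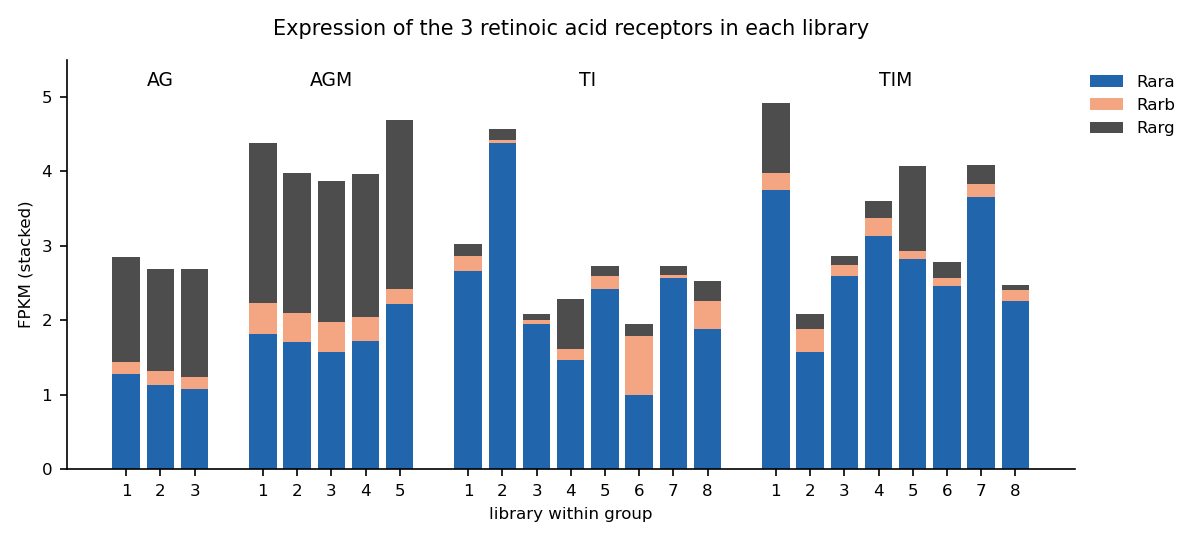
Stacked FPKM of Rara, Rarb and Rarg (linear axis) in each of the 24 libraries, by group. Rara makes up 40.2% to 47.3% of the bar in the 8 gland libraries and 51.2% to 95.9% in the 16 tumors.

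The hydroxylases that end the signal were scarce. Cyp26b1 was at 0.0435, 0.0337 and 0.0458 FPKM in AG (19 to 26 reads) and at 0.841, 0.505, 0.770, 0.505 and 0.848 FPKM in AGM (234 to 380 reads). In TI it ranged from 0.00461 to 0.239 FPKM (median 0.0775) and in TIM from 0 to 0.415 FPKM (median 0.134). AGM was above all other libraries. The mean was 16.4 RPM in AGM against 1.33 in AG, 2.83 in TI and 5.44 in TIM. The excess over AG was 15.1 RPM (exact permutation, adjusted p = 0.036), and TI and TIM were lower than AGM by 13.6 and 11 (exact permutation, adjusted p = 0.0047 for each). The tumors did not pass against AG for Cyp26b1 (exact permutation, adjusted p = 0.33 in TI and 0.18 in TIM). Scaled to all reads, the genes above 1000 FPKM included, the excess of AGM over AG became -0.18, so the direction rests on leaving those genes out of the total, as the deposited FPKM also show it.

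Cyp26a1, the other carrier of the repeat, was close to absent in these libraries. It had 2, 1 and 4 reads in AG and 8, 0, 0, 27 and 37 reads in AGM. In TI the reads ranged from 0 to 3, and all 8 TIM libraries had 0 reads. A count of 0 allows up to 3 reads in a library. TIM vs AG passed (exact permutation, adjusted p = 0.036), although AG itself lay at about this limit, and no fold was formed. The 3 AGM libraries with reads, at 0.495, 1.23 and 1.56 RPM, were above every AG, TI and TIM library and the other 2 AGM libraries were at 0. Liver markers summed to 148, 3709 and 4916 FPKM in those 3 libraries and to 28.4 and 3.28 FPKM in the other 2. The part of liver RNA in the Cyp26a1 reads was not tested. Over all 5 libraries, AGM did not pass against AG (exact permutation, adjusted p = 0.34) or against TI and TIM (exact permutation, adjusted p = 0.070 for each). At this depth no gain of Cyp26a1 was detectable in the tumors.

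The wider pathway was described through lists of 66 further genes, of which 43 passed the filter. In TI vs AG, 5 were higher and 19 lower, and in TIM vs AG 8 higher and 20 lower, which is 55.8% and 65.1% of the 43 beside 52.4% and 51.0% of all tested genes. The median log2 fold change of the 43 genes was -0.35 in TI and -0.36 in TIM. In AGM vs AG 14 were higher and 7 lower (median 0.21), which is 48.8% called beside 28.6% of all genes. Of those higher, Cyp26c1, Dhrs9, Aldh1a3 and Ppard reached 1 FPKM in AGM alone, so the count is a description. That contrast also depended on how libraries were scaled, as given above. In TIM vs TI 5 were higher and 6 lower, which at 25.6% is near the 22.9% of all genes. The contrasts with AG share its 3 libraries, so the counts are not independent.

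Dehydrogenases and reductases of retinol and retinal were more often lower than higher in tumors. Of 20 listed, 13 were tested, and 7 fell and 2 rose in each of TI and TIM against AG, beside 27.7% and 24.6% of all genes in TI and 28.5% and 22.5% in TIM. Of those that fell, Adh7, Rdh1 and Aldh1a7 reached 1 FPKM in glands alone. Their tests of tumors against glands are thus a description. Adh1, an alcohol dehydrogenase that oxidizes retinol, averaged 188 ± 7.09 FPKM (SD, n = 3) in AG and 845 ± 112 FPKM (n = 5) in AGM, but 0.876 ± 1.74 FPKM in the 8 TI and 1.11 ± 1.70 FPKM in the 8 TIM libraries. Adh1 was called in both tumor groups (log2 fold change -6.97 and -6.78, FDR 4.0e-11 and 6.3e-11) and was higher in AGM (2.15, FDR 0.0041). Adh7, another retinol-oxidizing alcohol dehydrogenase, fell from an AG mean of 6.90 FPKM to 0.0263 and 0.0139 FPKM in TI and TIM (-2.94 and -2.95). Rdh1, a retinol dehydrogenase, fell from 1.38 FPKM to 0.0067 and 0.0095 FPKM (-1.22 in both). The retinal reductases Dhrs3 and Dhrs4, which return retinal to retinol, fell as well (Dhrs3 -1.64 and -1.56; Dhrs4 -1.74 and -1.54), and so did Aldh1a7 (-2.06 and -2.07) and Adh5 (-1.06 and -1.20), which chiefly oxidizes formaldehyde bound to glutathione. All of these had FDR values of 1.6e-05 or lower. The genes that rose were Rdh11, a retinal reductase (0.73 in TI, FDR 0.0010; 0.48 in TIM, FDR 0.024), and Rdh13 (0.43 and 0.53, FDR 5.2e-05 and 3.9e-06). Rdh13 reached 1 FPKM in tumors alone, so its tests are a description as well.

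**Figure D5:**
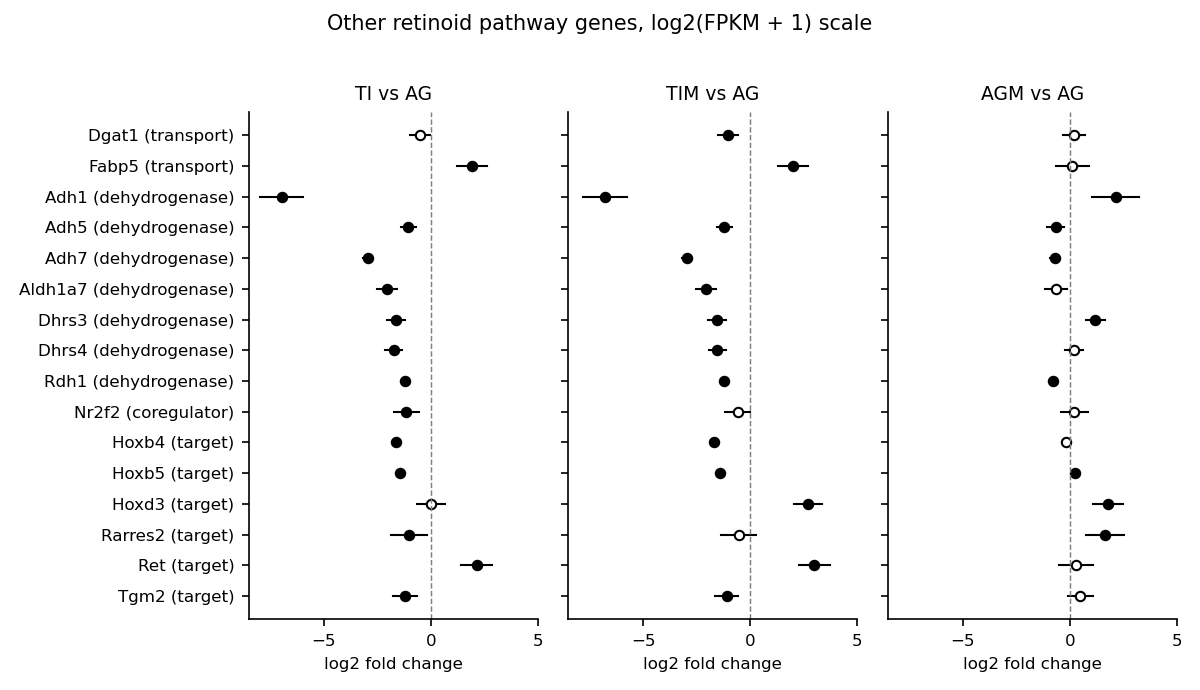
Log2 fold changes (log2(FPKM + 1) scale, 95% intervals) of 16 further retinoid pathway genes in TI, TIM and AGM against AG, filled where the FDR was under 0.05, with the role of each gene in brackets. Adh1 lies furthest to the left at -6.97 and -6.78 in the tumors, and Ret and Fabp5 lie to the right in both.

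Among carriers, 5 of 10 listed genes were tested. Fabp5, which takes retinoic acid to the receptor Ppard, averaged 2.70 FPKM in AG and rose to 13.8 and 14.2 FPKM in TI and TIM (1.94 and 2.00, FDR 5.0e-05 and 3.6e-05), with no overlap in either. Dgat1, an acyltransferase that can esterify retinol, was lower in TIM (-1.04, FDR 0.00065) and was not called in TI (-0.49, FDR 0.079). Rbp4, the retinol carrier of blood, made in liver and fat, was called in AGM vs AG only among the contrasts with AG (5.23, FDR 4.4e-06). Its AGM values spread from 19.6 to 523 FPKM, in libraries whose liver markers summed to 3.28 to 4916 FPKM, and the part of liver or fat RNA was not tested.

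Of the 4 receptor partners, Rxra, a dimer partner of the Rar family, averaged 2.74 FPKM in AG and fell to 1.25 and 1.17 FPKM in TI and TIM (-0.77, FDR 0.012; -0.83, FDR 0.0075), and Ppard fell in both (-0.48, FDR 0.0011; -0.30, FDR 0.033). Ppard reached 1 FPKM in AGM alone. Rxrb was at 4.24 FPKM in AG, 5.59 in TI and 3.73 in TIM, was not called against AG in either, and was lower in TIM than in TI (-0.45, FDR 0.012). Rxrg was higher in TIM than in TI (0.95, FDR 0.022), with 0 to 6.28 FPKM in TIM. Of 8 tested coregulators 2 fell in TI, which is 25.0% beside 27.7% of all genes, and 4 fell and 1 rose in TIM (28.5% and 22.5% of all genes). Ncor1, a corepressor that silences Rar targets without ligand, was lower in TIM (-0.70, FDR 0.0019) and in AGM (-0.79, FDR 0.0031) and not called in TI (-0.14, FDR 0.53), and the direct test of TIM vs TI passed (-0.55, FDR 0.0043). The AGM and TIM samples were sequenced in runs 2 and 3 and the AG and 6 of 8 TI samples in run 1, so for Ncor1 run and group cannot be told apart. Nr2f2, an orphan receptor that competes for such repeats, was lower in TI (-1.14, FDR 0.0021) and not called in TIM (-0.59, FDR 0.092), without passing in TIM vs TI (0.55, FDR 0.066).

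Genes known as targets of retinoic acid went in both directions. Of 19 listed, 12 were tested, and 7 fell and 2 rose in TI (27.7% and 24.6% of all genes) and 6 fell and 4 rose in TIM (28.5% and 22.5%). Hoxb4 and Hoxb5, homeobox genes that retinoic acid switches on in the embryo, had AG means of 2.44 and 1.80 FPKM and fell to 0.108 and 0.0402 FPKM in TI and 0.0755 and 0.0351 FPKM in TIM (FDR 7.7e-15 or lower). Both reached 1 FPKM in glands alone, so these tests are a description. Tgm2, encoding tissue transglutaminase, fell from 5.00 FPKM to 1.75 and 1.87 FPKM (-1.20, FDR 0.00059; -1.10, FDR 0.0014). Rarres2, encoding chemerin, fell in TI (-1.03, FDR 0.036) and was not called in TIM (-0.55, FDR 0.27). In the other direction, Ret, the receptor of glial cell line-derived ligands and a marker of sympathetic neuroblasts, averaged 0.0538 FPKM in AG and rose to 3.80 and 8.55 FPKM in TI and TIM (2.14, FDR 2.3e-05; 3.0, FDR 2.2e-07) and was higher in TIM than in TI (0.85, FDR 0.022). Meis1, a homeobox gene active in neuroblastoma, rose in both (0.75, FDR 0.0090; 0.66, FDR 0.020). Hoxd3 and Hoxd4 were also higher in TIM than in AG (2.70, FDR 1.7e-07; 0.55, FDR 0.0038). Ret and Meis1 reached 1 FPKM in tumors alone, and Hoxd3 and Hoxd4 in AGM and TIM alone. The tests of these genes against AG are likewise a description.

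Some of these genes were near 0 in AG and TI and high in single groups or libraries. Hoxd3 had 1 read in each AG library and 0 or 1 in each TI library, whereas the AGM libraries held 614 to 1374 reads and the TIM libraries 513 to 3985. Cyp26c1, a further hydroxylase of the family, and the dehydrogenases Dhrs9 and Rdh16 also had 1 read in each AG library, and reached 7305, 6594 and 20702 reads in single AGM libraries. Within AGM, Dhrs9 had 973 reads or more in every library, whereas Cyp26c1 (0 to 49.9 FPKM) and Rdh16 (0 to 38.5 FPKM, median 2.02) were at 0 in 1 library each. In TIM, Cyp26c1 and Dhrs9 had 0 or 1 read in every library, and Rdh16 was at 0 in 4 libraries and reached 806 reads. AG and AGM share no run, so in AGM vs AG run and group cannot be told apart for these genes. Run 2 also held 3 TIM samples and 1 TI sample, and the other 5 TIM samples were in run 3. Liver markers spread from 3.28 to 4916 FPKM over the AGM libraries. The part of run or of liver RNA in these values was not tested.

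The genes whose log2(FPKM + 1) followed each member most closely over the 24 libraries were found by Pearson r, as a description, since the points share their groups. Aldh1a2 was most like Hao2 (0.995), Osr2 (0.993) and Rbm47 (0.993), and Rarg most like Slc12a4 (0.987), Sorbs3 (0.985) and Cdc42ep1 (0.985). Aldh1a1 was most like Nnmt (0.964), Papss2 (0.958) and Sema4a (0.958). Rara and Crabp1 had less close companions, with Limk1 (0.791) and Slc35f2 (0.783) for Rara, and Shroom1 (0.840), Stom (0.834) and Rph3a (0.829) for Crabp1. After the mean of each group was taken away, the closest genes were Cdh2 for Aldh1a2 (0.689), Syde1 for Rarg (0.974), Cxcl12 for Aldh1a1 (0.936), Pou2f2 for Rara (0.850) and Cdh4 for Crabp1 (0.855). Rph3a was the only gene to stand among the closest 3 of a member in both rankings, for Crabp1. Between the members themselves, Aldh1a2 and Rarg had r = 0.863 over the libraries and -0.018 after removal of the group means, so their likeness lay between groups.

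The tested neighbours of the 5 genes in the genome, 5 on each side, are given for context. Of all tested genes, 24.6% were higher and 27.7% lower in TI vs AG, and 22.5% and 28.5% in TIM vs AG. Around Rara (chromosome 11, 98818612 to 98865768, GRCm39, plus strand), 6 of 10 neighbours were higher and 2 lower in TI vs AG, and 4 higher and 2 lower in TIM vs AG. The next genes, Cdc6 and Top2a, which act in DNA replication and chromosome separation, stood at 1.07 and 2.62 in TI, and Igfbp4 at -2.21. Around Aldh1a2, 2 of 10 were higher and 1 lower in TI and 3 higher and 1 lower in TIM, with medians of 0.087 and 0.015. Around Aldh1a1, 0 of 10 were higher and 6 lower in each of TI and TIM (medians -0.60 and -0.77), beside -0.76 and -0.64 for Aldh1a1 itself. Around Crabp1, 0 were higher and 4 lower in TI and 5 lower in TIM (medians -0.29 and -0.40). Around Rarg (chromosome 15, 102143373 to 102165952, minus strand), 2 neighbours were higher and 4 lower in TI, and 1 higher and 3 lower in TIM.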

How the data were processed

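The authors trimmed reads with cutadapt 2.8, aligned them with HISAT2 2.1.0 to mm39 (sorted with SAMtools 1.10), counted them with featureCounts 2.0.0, corrected the counts for sequencing run with ComBat-seq and scaled them by TMM in edgeR 3.40, and deposited FPKM. Correction can move genes with few reads in 1 run far. Another 9 deposited columns hold the authors' log2 fold changes, p-values and FDR and were not used. Columns were assigned to groups by name. They carry no sample number, so run, zygosity and tumor site of a column were not used.

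FPKM times gene length gave whole multiples of a step for 100.0% of values (tolerance 0.1), which returned the corrected reads. Intervals and limits of 3 reads for a count of 0 cover counting error only.

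limma 3.58.1 (R 4.3.3; lmFit, eBayes with trend, Benjamini-Hochberg) was fitted to log2(FPKM + 1) for those 10171 genes that 3 or more libraries held at 1 FPKM or above, all 4 groups sharing 1 spread, in 6 contrasts with an FDR threshold of 0.05. The remaining members were compared as RPM (reads per 1000000 reads outside 126 genes above 1000 FPKM) by exact two-sided permutation, adjusted over the 6 contrasts. The smallest p this allows is 0.0061 in TI or TIM vs AG, 0.018 in AGM vs AG, 0.00078 in TI or TIM vs AGM and 0.00016 in TIM vs TI. Both tests were tested on simulated data. Gene positions are from GENCODE M39 (GRCm39), and promoter windows from RefSeq (GRCm38.p6), so coordinates of the 2 builds are not comparable.

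Members and lists were chosen with earlier results of these data known. All 9 members are named, then those of the 66 listed genes past the threshold whose log2 fold change reached 1 in either direction in TI vs AG or TIM vs AG (16 genes shown), and for each tested member the 3 genes of highest Pearson r. Of the genes these rules name, 1 listed gene and 1 gene like Rara are not reported here. Rxra, Rxrb, Rxrg, Ppard, Ncor1, Rdh11, Rdh13, Meis1, Rbp4, Cyp26c1, Dhrs9 and Rdh16, and the neighbours Cdc6, Top2a and Igfbp4, were named after their values were seen.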

Additional observations from a re-analysis of the deposited data

Results flagged for a closer look

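In 27 sets of 4 to 10 libraries the library at either end was compared with the rest, where chance marks about 5% of sets. Rarg in TI had 1 library far above the others, TI library 4 at 0.673 FPKM, with the next at 0.270 FPKM. That library also held the highest mesenchyme and endothelium marker sums among the tumors (66.0 and 64.9 FPKM), whose part was not tested. Cyp26a1 in TI had its highest value, 0.0144 FPKM, in TI library 6, which is 3 reads and thus at the limit that a count of 0 allows. Crabp2 differed between the tumor groups, by -1.39 RPM in TIM vs TI (exact permutation, two-sided, adjusted p = 0.030), with the TIM libraries at 0 to 1.51 RPM and the highest TI values, 4.01 and 3.83 RPM, above all of them. Most TI samples were in run 1 and no TIM sample was, so run and tumor model are largely tied here.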

How the results depend on the processing

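No paired analysis was run, since the groups came from mice of different genotypes. The value columns also carry no replicate number, so a replicate block was not fitted. The planned comparison of protein sequences was not run either. The exclusion of 4 tumor libraries, the share of recovered reads and the values of the receptor share without single libraries were chosen after seeing the data. The number of genes called in TI vs AG fell from 4 to 2 without AG library 1, 2 or 3 (2 to 4 over all single libraries), as Aldh1a1 and Rara no longer passed. In AGM vs AG it fell from 3 to 1 with a pseudocount of 0.1 and with limma-voom (2 to 3 without single libraries). Without a filter and with recomputed FPKM more members entered the test, and 1 was called in TIM vs TI and 7 in TI vs AGM under either. The other contrasts ranged over 3 to 4 calls in TIM vs AG, 4 to 5 in TIM vs AGM, 4 to 4 in TI vs AGM and 0 to 0 in TIM vs TI without single libraries. Of the scarce genes, 6 pairs of gene and contrast passed, and 3 to 7 without single libraries, with 3 without AGM library 4 or 5.

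Signs turned only where the main value was not called, except for Cyp26b1. With limma-voom, Crabp1 in TI vs AG became -0.94. Without the 4 tumor libraries high in other markers, TIM vs TI became -0.028 for Aldh1a1, -0.0035 for Rara and -1.96 percentage points for the Rara share, and Rarb became -0.65 RPM in TI vs AG and 0.60 in TIM vs TI. Scaled to all reads (RPM), Crabp2 became -0.031 in TIM vs AG and -0.12 in AGM vs AG, Rarb -4.87 in AGM vs AG, 0.030 in TIM vs AGM and 6.81 in TI vs AGM, Cyp26a1 -0.097 in AGM vs AG, and Cyp26b1 -0.57 in TIM vs AG, -0.18 in AGM vs AG, -2.04 in TIM vs TI and 1.65 in TI vs AGM. By construction this total includes the genes above 1000 FPKM, which fill most of it in AGM and TIM. As deposited FPKM, Rarb became 0.0089 in TIM vs AG. Without single libraries, values ranged from -0.030 to 0.72 for Crabp1 in TIM vs TI, from -0.036 to 0.080 for Crabp2 in AGM vs AG, and for Rarb from -0.73 to 2.89 in TI vs AG, -3.47 to 0.14 in TI vs AGM, -0.76 to 0.12 in TIM vs AG and -3.15 to 0.46 in TIM vs TI. The Rara share ranged from -0.12 to 2.12 points in AGM vs AG and -2.01 to 4.36 in TIM vs TI, and stayed at 36.9 to 43.3 in TI vs AG, 40.1 to 43.3 in TIM vs AG, 36.0 to 42.3 in TI vs AGM and 39.2 to 42.4 in TIM vs AGM. Depth limits Crabp2, Cyp26a1 and Cyp26b1, which have few reads in AG.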
